A study of Mus musculus with 12 samples.

Results

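The 9 genes described here are the activating transcription factor (ATF) genes Atf1, Atf2, Atf3, Atf4, Atf5, Atf6 and Atf6b, together with Ddit3 and Chac1, out of 21887 protein-coding mouse genes examined in the same way. They were set beside peaks of the transcription factor USF2, found by ChIP-seq, which enriches and sequences the DNA that an antibody against a chromatin protein brings down. A gene counted as called in a peak list when a peak summit lay inside the gene or within 1000 bp of either of its ends. The genes were picked with these calls in view, so the calls and the peak values are given as a description and without a test. The conditions were glucose starvation, with 2 USF2 libraries from wild-type (WT) mouse embryonic fibroblasts (MEF), and normal culture, with 2 USF2 libraries from cells of the same label. The labels give no duration of starvation, no medium and no line of origin for the fibroblasts, and they do not say whether the libraries of a condition came from separate cultures. These 4 libraries are part of a series of 12 samples. The input libraries and the H3K27ac libraries of Usf2 WT and Usf2 KO cells were not analysed here, and a list of USF2 peaks cannot show whether the cells carry fibroblast markers.

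The ATF proteins are basic leucine zipper (bZIP) factors that bind DNA as dimers. Under amino acid shortage, damage to the endoplasmic reticulum (ER) or mitochondrial stress, kinases that phosphorylate the translation factor eIF2 slow protein synthesis in general while the Atf4 mRNA is translated more, a programme called the integrated stress response. ATF4 and the factor CHOP, encoded by Ddit3, switch on genes of amino acid supply and cell death, among them Chac1, whose enzyme breaks down glutathione. ATF6 and its relative ATF6B sit in the ER membrane and are cleaved under ER stress to release a transcription factor. USF2 is a basic helix-loop-helix leucine zipper factor that binds the E-box, the palindrome CACGTG.

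The sequences that bear most closely on the USF2 peaks are the E-boxes in front of Atf1 and Atf6b, since these were the only E-boxes found in the promoter windows of the 9 genes and since the USF2 summits lay beside them. A promoter window runs from 250 bases before to 50 after the annotated gene start, in the RefSeq table of GRCm38.p6, which has a window for 8 of the 9 genes (none for Atf6). The lines give 30 bases with the E-box in capitals, both on the plus strand, at chr15:100227742-100227771 and chr17:34647086-34647115.
Atf1: gatggcggcgctCACGTGaccacgcggtga
Atf6b: gctccttcgtgtCACGTGttcaccaactaa

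To place these E-boxes, the 250 bases before each gene start are shown, for Atf1 at chr15:100227609-100227858 and for Atf6b at chr17:34646896-34647145, again on the plus strand with the E-box in capitals.
Atf1: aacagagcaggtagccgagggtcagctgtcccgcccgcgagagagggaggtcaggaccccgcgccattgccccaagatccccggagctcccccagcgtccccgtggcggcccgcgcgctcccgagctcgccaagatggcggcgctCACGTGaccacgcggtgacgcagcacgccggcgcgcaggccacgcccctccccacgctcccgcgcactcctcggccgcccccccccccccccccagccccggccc
Atf6b: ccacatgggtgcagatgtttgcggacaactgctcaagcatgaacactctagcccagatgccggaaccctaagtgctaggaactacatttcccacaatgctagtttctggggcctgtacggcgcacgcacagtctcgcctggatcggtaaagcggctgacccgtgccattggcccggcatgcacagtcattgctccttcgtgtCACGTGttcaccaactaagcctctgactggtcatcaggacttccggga

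Of the 9 genes, 3 were called in both starved lists (Atf4, Atf1 and Atf6b) and 4 in both normal lists (the same 3 genes and Chac1). The remaining 5 genes, Atf2, Atf3, Atf5, Atf6 and Ddit3, were called in none of the 4 lists. By the same rule 2.48% of all protein-coding genes were called in both starved lists and 4.08% in both normal lists. All 4 lists called 3 of the 9 genes and 1.35% of all genes, and at least one list called 4 of the 9 and 10.5% of all genes. Since the genes were chosen by these calls, nothing is read from that difference. With gene ends alone, leaving out summits deeper inside genes, the same 4 genes were called, against 1.78% of all genes in both starved lists and 2.19% in both normal lists. The lists held 825 and 1186 peaks after starvation and 1645 and 2124 in normal culture. Peaks were at least 306 bp wide in the starved lists and at least 152 bp wide in the normal lists, which points to another width setting for each condition. The values of a gene are therefore set side by side, without a fold change between lists.

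Atf4 had the strongest peak of the set in each of the 4 lists by −log10 q, the peak caller's measure of confidence. The authors' ratio of reads at its summit to the local background, here called the fold enrichment, came to 7.29 and 9.13 in the starved lists and 13.6 and 13.0 in the normal lists. The −log10 q was 12.9 and 17.2 in the starved lists and 35.1 and 32.7 in the normal lists. By −log10 q the peak stood at rank 105 of 825 and 64 of 1186 after starvation. In normal culture it stood at rank 17 of 1645 and 21 of 2124. By fold enrichment its ranks were 212 and 119 after starvation and 62 and 76 in normal culture. In starved list 1 the fold enrichment of Atf1 was higher, at 7.38. The Atf4 values of both starved lists were below those of both normal lists, in lists that also differ in peak width and in length. The 247 genes with a gene-end peak in all 4 lists also had a lower median fold enrichment after starvation, at 8.12 and 8.42. In the normal lists it was 9.55 and 9.51, a smaller gap than at Atf4. The share of genes whose values did not overlap between conditions was not counted, so how common the pattern of Atf4 was is not known.

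Among the 247 genes with a gene-end peak in all 4 lists, a set of the same size in each list, Atf4 ranked 96 and 62 in the starved lists and 21 in both normal lists by −log10 q. The number of reads over the summit, recovered from fold enrichment and p-value, was 27 (95% exact Poisson interval 17.8 to 39.3) and 29 (19.4 to 41.6) in the starved lists and 45 (32.8 to 60.2) and 43 (31.1 to 57.9) in the normal lists. Such intervals cover counting error only, as reads may be copies of one molecule. They take no account of the differing peak width or of depth, which is not given. The counts of 2 libraries of a condition differed by less than the width of their intervals, and the intervals of the conditions overlapped. Neither point measures the spread between replicates or decides whether the counts differ between conditions, which was not tested. The part of the peak width in the lower ranks after starvation was not tested.

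The Atf4 summit did not lie in front of the gene but inside it. The gene spans chr15:80255184-80257545 on the plus strand. The summit lay 143 and 185 bp after the gene start in the starved lists and 200 bp after it, at the same base, in both normal lists. The 4 summits spanned 57 bp, close to the median of 60 bp over the merged peak regions called in all 4 lists, of which there were by coincidence also 247. The annotation used gives no exons, so an exon, intron or UTR cannot be named for this position. No RefSeq promoter window reaches the summit, so the bases beneath it are not shown. The window before it held no CACGTG and a single CATGTG, a related hexamer, at 372 and 414 bp from the starved summits and 429 bp from both normal summits.

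**Figure D1:**
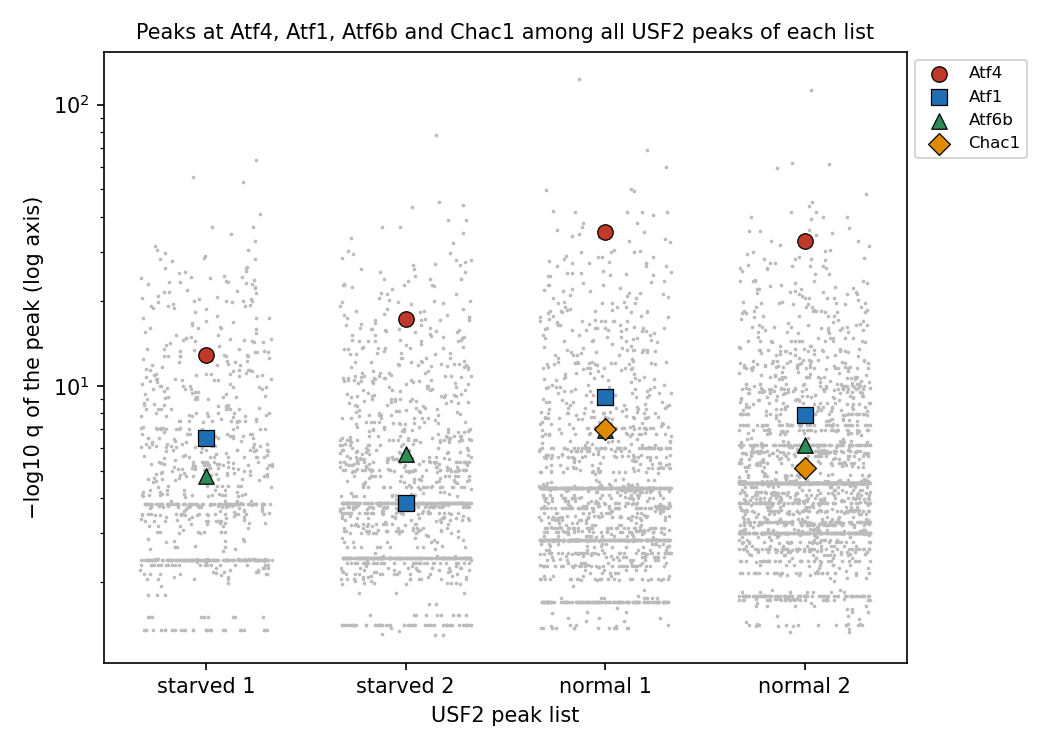
Confidence of each USF2 peak (−log10 q, log axis) in the 4 lists, with all peaks in grey and the peaks of Atf4, Atf1, Atf6b and Chac1 marked. Atf4 is the highest of the 4 genes in each list, at 12.9 and 17.2 after starvation and 35.1 and 32.7 in normal culture, and Chac1 has no point in the starved lists.

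Atf1 encodes a close relative of CREB that binds cyclic AMP response elements. Its peak had a fold enrichment of 7.38 and 5.79 in the starved lists and 8.82 and 8.08 in the normal lists. The −log10 q was 6.52 and 3.82 in the starved lists and 9.11 and 7.86 in the normal lists, at rank 256 of 825, 655 of 1186, 236 of 1645 and 418 of 2124 in that order. Both starved values were again below both normal ones, as was the case for the median fold enrichment of the 247 genes. How many single genes show this order was not counted, so nothing is read from it. The second starved list stood lowest. Its −log10 q was near the list median of 3.83, and its fold enrichment was above the list median of 5.30.

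Few reads stood behind this peak. The summit pileup was 10 and 7 reads in the starved lists and 11 and 10 in the normal lists. The exact Poisson intervals overlapped (2.81 to 14.4 for the lowest and 5.49 to 19.7 for the highest count). No difference in reads was tested, as depth is not given and the lists differ in peak width. Among the 247 genes of all 4 lists Atf1 ranked 186 and 231 in the starved lists and 160 and 187 in the normal lists.

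The Atf1 gene spans chr15:100227859-100261248 on the plus strand. Its summit lay before the gene start, by 147 and 130 bp in the starved lists and by 116 bp, at the same base, in both normal lists. No other protein-coding gene had an end within 1000 bp of it. The centre of the E-box shown above was 44.5 and 27.5 bp from the starved summits and 13.5 bp from both normal summits. The longer 8-base form GTCACGTG, which contains the E-box, was found here on the minus strand.

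Atf6b had the lowest fold enrichment of the 3 genes called throughout, in each of the 4 lists. It was 4.46 and 5.48 in the starved lists and 6.59 and 6.20 in the normal lists. The −log10 q was 4.79 and 5.73 in the starved lists and 6.95 and 6.17 in the normal lists, at rank 371 of 825, 343 of 1186, 328 of 1645 and 530 of 2124. Both starved values were below both normal ones, as was the case for the median fold enrichment of the 247 genes. For this order, too, the number of single genes that show it was not counted. In −log10 q the gap between the nearest lists, 5.73 and 6.17, was smaller than the difference between the libraries of either condition.

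The summit pileup of Atf6b was 20 and 17 reads in the starved lists and 16 and 15 in the normal lists. The lists differ in peak width and their depth is not given, so these counts are not compared as levels. The local background was 3.70 and 2.29 reads in the starved lists and 1.58 in both normal lists. The lower fold enrichment after starvation stood beside a higher background, in lists with a larger minimum peak width. The lowest background of any peak was also higher in the starved lists, at 0.131 and 0.133 against 0.0979 in both normal lists. The part of background and width in the lower fold enrichment was not tested.

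The Atf6b gene spans chr17:34647146-34655074 on the plus strand. Its summit lay 55 bp before the gene start in starved list 1 and 38 bp after it in starved list 2, and 52 and 58 bp before it in the normal lists. Both normal peaks had the same start and end and the minimum width of 152 bp. The summits were also within 1000 bp of an end of Fkbpl, at 271 to 367 bp, so the peak cannot be assigned to Atf6b alone. The E-box centre lay 9.5 and 83.5 bp from the starved summits and 6.5 and 12.5 bp from the normal summits. Starved list 2 was the odd one, with its summit 93 bp from that of starved list 1, more than the upper quartile of 71 bp among 543 regions of both starved lists.

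Chac1, the glutathione-degrading enzyme and textbook target of ATF4, was called in the normal lists and in neither starved list. Its peaks had a fold enrichment of 7.36 and 6.31 there, with −log10 q of 7.05 and 5.09 at rank 324 of 1645 and 746 of 2124. The summit pileup was 13 and 11 reads (exact Poisson intervals 6.92 to 22.2 and 5.49 to 19.7). Such a pattern, a call in both normal lists and in neither starved list, was found for 2.33% of all protein-coding genes. With gene ends alone, where the Chac1 summit also counts, the share was 0.841%. In the starved lists the nearest summits to Chac1 were 643 and 309 kb away. The absence of a peak there says that the caller's threshold was not passed and gives no level of binding. The smallest summit pileup among peaks of the starved lists was 3 reads, in both.

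The gene spans chr2:119351242-119354326 on the plus strand, and its summit lay 547 bp before the gene start at the same base in both normal lists, the farthest from a gene end in the set. The peaks shared their start. With a limit of 500 bp in place of 1000 bp, Chac1 would not be called, while the other 3 genes would. The promoter window begins after the end of both peaks, so the bases under the summit are not shown. What the window does hold is an element of the form TGATGNAA, known as a site for ATF4 paired with a C/EBP factor, read here on the minus strand and 357.5 bp from the summit. The same element stood in the window of Atf3, a gene without a USF2 call, and 3.60% of 21263 windows of protein-coding genes hold one. These were the only matches to TGATGNAA in the promoter windows of the set. Besides it only the cyclic AMP response element TGACGTCA was searched, so other stress-response sites may have been missed. Both matches are shown in capitals on the strand of their gene, at chr2:119351038-119351067 (plus) and chr1:191183425-191183454 (minus).
Chac1: cttccctgccgTTGCATCActcctgccagg
Atf3: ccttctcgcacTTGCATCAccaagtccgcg

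**Figure D2:**
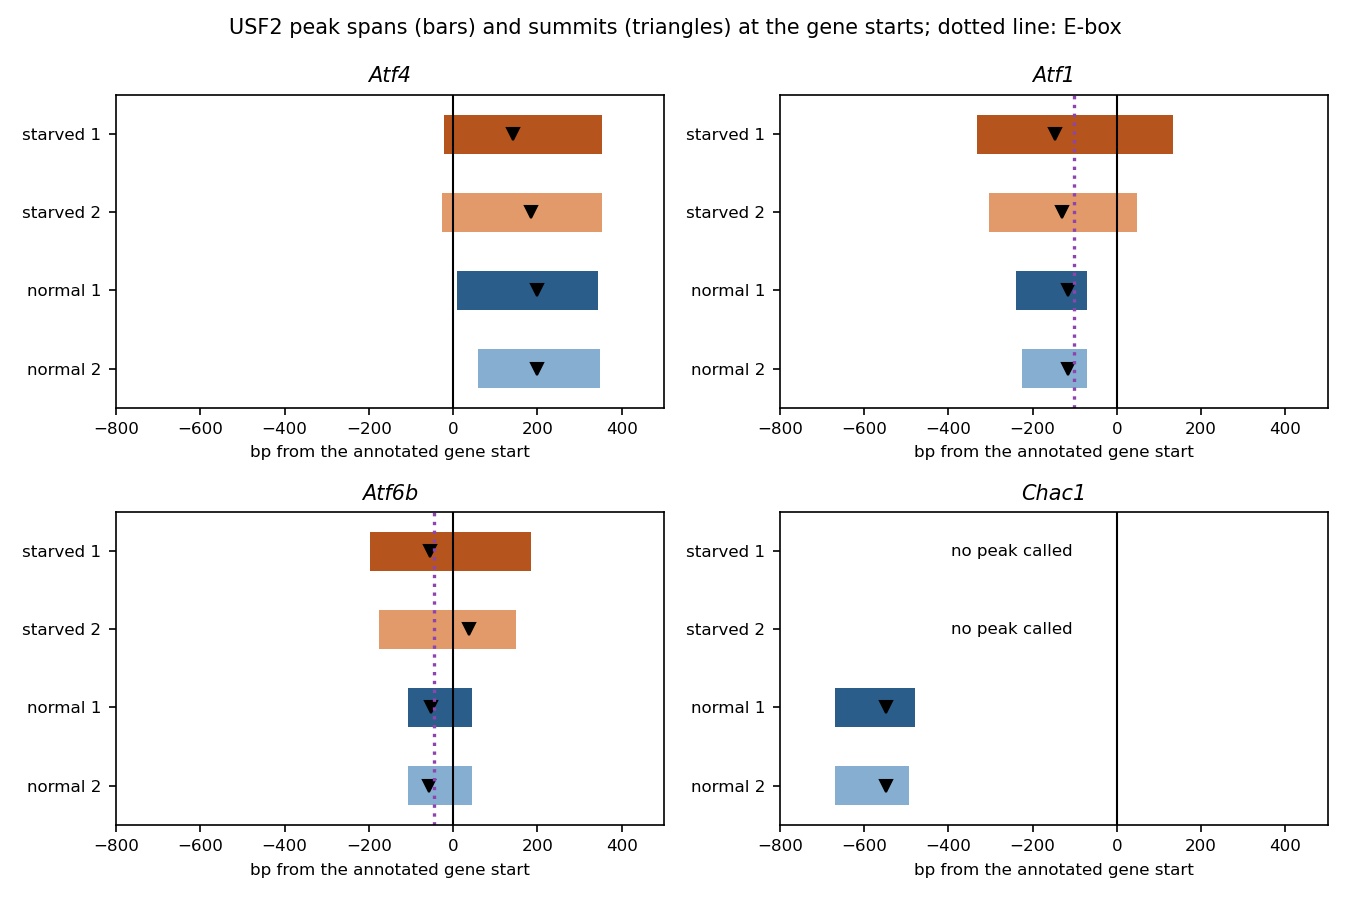
Span (bars) and summit (triangles) of the USF2 peaks at Atf4, Atf1, Atf6b and Chac1, in bp from the annotated gene start (solid line), with starved lists above normal lists and the E-box centre as a dotted line. Atf4 summits lie 143 to 200 bp inside the gene, Atf1 and Atf6b summits lie near an E-box, and the Chac1 summit lies 547 bp before the gene.

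The genes without a call were not near misses, and the closest was Ddit3 in starved list 1. Ddit3, the gene of CHOP, had its nearest summit 12.1 kb before the gene in starved list 1 (fold enrichment 5.30, −log10 q 3.80), and 79.3 kb in starved list 2 and 95.09 and 95.03 kb in the normal lists. Atf3, a stress-induced factor that often acts as a repressor, had its nearest summits 72.2 kb away in both starved lists and 107 kb away in both normal lists. Atf2, a target of stress kinases, had them at 686 kb in both starved lists and 91.4 kb in both normal lists.

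Atf5, which is linked to mitochondrial stress, had its nearest summit at 650 kb in both starved lists and at 593 and 142 kb in the normal lists. For Atf6, the ER stress sensor, the distances were 9497 and 819 kb in the starved lists and 546 and 150 kb in the normal lists. Atf6 and Atf6b, which encode related ER membrane proteins, thus differed in their calls in every list, as did Atf4 and its partner gene Ddit3. Among the nearest summits of each gene in each list, none lay between 547 bp, at Chac1, and 12123 bp, at Ddit3. Further summits beyond the 1000 bp limit around the called genes were not sought.

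**Figure D3:**
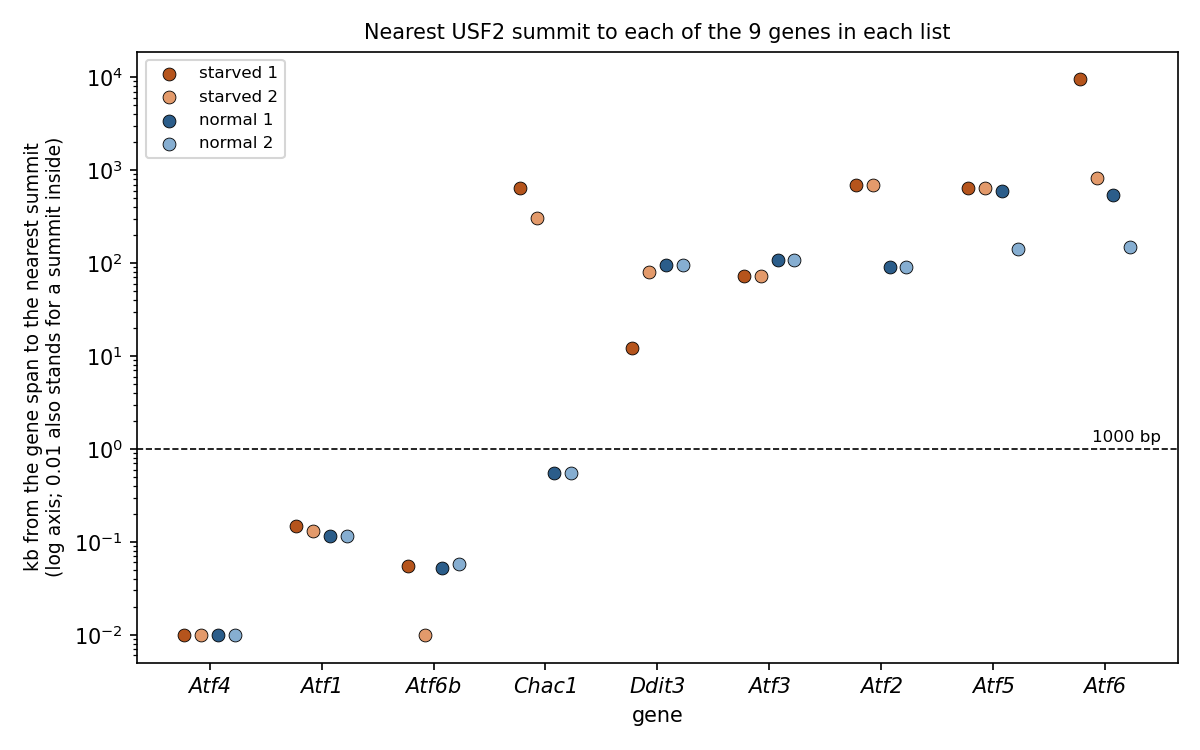
Distance in kb (log axis) from each of the 9 genes to its nearest USF2 summit in each list, with the limit of 1000 bp as a dashed line and summits inside a gene drawn at 0.01. Atf4, Atf1 and Atf6b lie under the limit in all lists and Chac1 in the normal lists, while the nearest other point is Ddit3 at 12.1 kb in starved list 1.

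The E-box was not itself used to choose the genes, but it goes with USF2 summits, which were, so its presence in the called genes is a description and no independent result. Of the 8 genes with a promoter window, 2 held CACGTG, and these were the 2 genes whose windows also held the USF2 summits. The windows of Atf2, Atf3, Atf4, Atf5, Ddit3 and Chac1 held none. Over all protein-coding genes 7.84% of 21263 windows held CACGTG, and GTCACGTG, which overlaps it, was in 2.84%. CATGTG was in 11.5% of windows, among them those of Atf4 and Atf6b. The cyclic AMP response element TGACGTCA was in 2.23% and in none of the windows of these 8 genes. Searches covered both strands, and a match describes the letters in a window and not a bound site.

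Set beside all promoter windows, Atf1 and Atf6b looked like most that hold a USF2 summit. Of windows with a summit in a list, 87.1% and 86.1% held CACGTG for the starved lists and 68.2% and 63.9% for the normal lists. For windows with a summit in all 4 lists it was 125 of 136 (91.9%), against 6.25% of the 20721 windows with a summit in no list. Windows were not matched for base composition, and genes can have several. Where a window held both, the median distance between summit and E-box centre was 18.5 and 22.5 bp in the starved lists and 13.0 and 11.5 bp in the normal lists. The upper quartile was 38.5 and 45.5 bp in the starved lists and 26.3 and 27.5 bp in the normal lists. Atf1 lay at or under the upper quartile except in starved list 1 (44.5 bp), and Atf6b except in starved list 2 (83.5 bp).

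**Figure D4:**
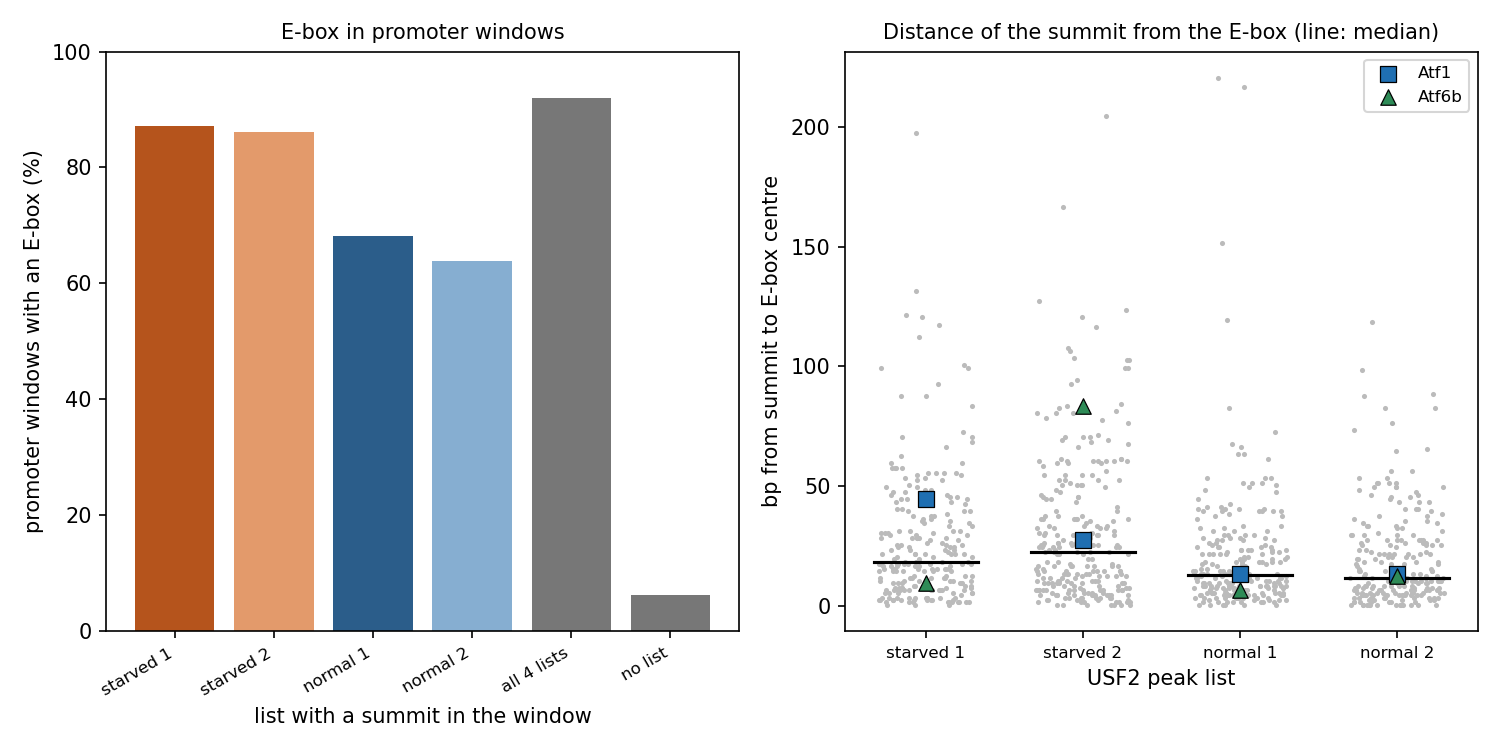
Left, percent of promoter windows holding CACGTG among windows with a USF2 summit in each list, in all 4 lists or in none. Right, distance in bp from summit to E-box centre for windows with both (grey, median as a line), with Atf1 and Atf6b marked: in normal culture both lie within 13.5 bp, and after starvation they lie between 9.5 and 83.5 bp.

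The other genes of the stress pathways were counted in 6 lists, against 2.48% of all protein-coding genes called in both starved lists and 4.08% in both normal lists. Each list held 0 to 3 called genes, and no list was tested against that share. None of 19 eIF2 kinases and regulators was called in both lists of a condition, and 2 of 19 (10.5%) were called in any list, the same share as over all genes. Gcn1, needed to activate the amino acid sensing kinase GCN2, and Impact, which counteracts it, were called in normal list 2 alone (fold enrichment 9.12 and 4.87), each inside the gene. They are named here after their values were seen. Of 32 ATF4 and CHOP targets, 2 (6.25%) were called in both starved lists and 1 (3.13%) in both normal lists. Slc38a2, an amino acid transporter, had a fold enrichment of 12.1 and 11.9 in the starved lists and no normal call, with the summit 830 and 892 bp from a gene end. Aldh1l2, a mitochondrial folate enzyme, was called in all 4 lists, with 6.05 and 5.61 in the starved lists and 10.04 in both normal lists. Asns and Trib3, well-known ATF4 targets, were called in no list.

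Of 20 cytosolic tRNA synthetases, none was called in both starved lists, against 2.48% of all genes, and 2 (10%) in both normal lists, against 4.08% of all genes. Wars, for tryptophan, had 11.6 and 10.6 in the normal lists with the summit 16 and 17 bp from a gene end, a position shared with Wdr25. Lars, for leucine, had 4.39 and 6.14 at a summit deep inside the gene. Of 26 ER chaperones and sensors of the unfolded protein response (UPR), none was called in both starved lists and 1 (3.85%) in both normal lists, Derl1 (4.60 and 5.45), a protein of ER-associated degradation. The chaperone gene Hspa5 and the factor gene Xbp1 were called in no list. Of 19 genes of glutathione metabolism, none was called in both starved lists and 1 (5.26%) in both normal lists. This was Oplah (6.47 and 7.65), whose enzyme converts the 5-oxoproline that CHAC1 releases, and its summit was 3829 and 3830 bp from an end of Oplah and within 1000 bp of an end of Exosc4.

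Among 45 other bZIP factors, 2 (4.44%, against 2.48% of all genes) were called in both starved lists and 3 (6.67%, against 4.08%) in both normal lists. Batf3, an AP-1 partner of immune cells, had 7.07 and 8.83 in the starved lists and no normal call, and its summits were those nearest to Atf3. Tef, a clock output factor, was called in all lists, with 5.96 and 4.98 in the starved lists and 7.67 and 8.12 in the normal lists. Mafg, a small Maf protein, had 7.53 and 6.90 in the normal lists alone, and Crebzf had 5.40 and 10.8 there. Some genes stand in more than one of these lists.

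**Figure D5:**
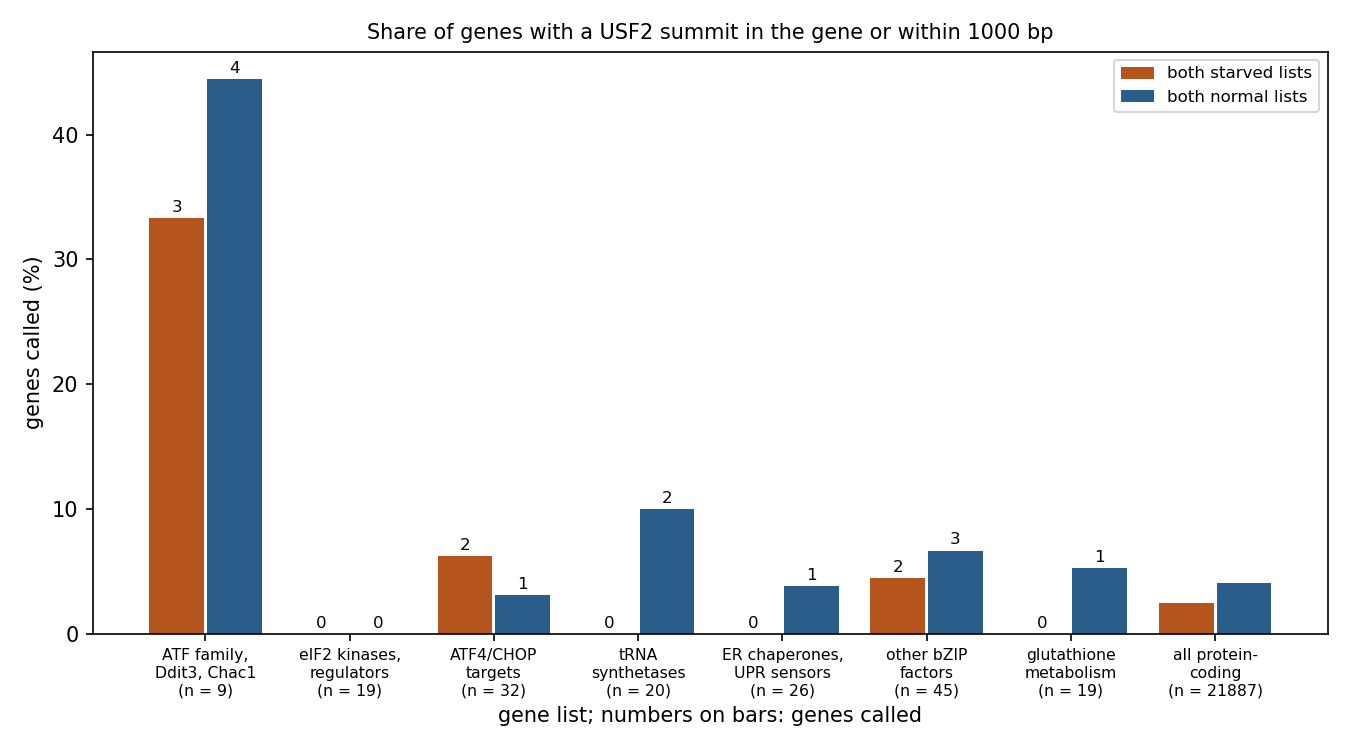
Percent of genes called in both starved lists (left bars) and both normal lists (right bars) for the 9 genes, for 6 other gene lists and for all protein-coding genes, with the number of genes called on each bar. The 9 genes were chosen by their calls, so their 3 and 4 called genes are a description, while the other lists have 0 to 3 called genes.

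Genes whose USF2 peaks stood most like those of the called genes were sought by the rank of the gene-end peak, as a percent of its list, among genes called in the same lists. For Atf4, over 4 lists and 246 candidates, these were Snx8, an endosomal sorting nexin (mean absolute difference 1.73 percentage points), and Dolk and Nup188, which share a peak (1.77). For Atf1 they were Nup54 (4.14), Ubap2 (4.74) and Gnpda1 (6.28). For Atf6b, over 245 candidates, they were Megf9 (2.80), Fam8a1 (3.27) and Ythdf1 (4.53). For Chac1, over the 2 normal lists and 183 candidates, they were Fem1b (1.12), Gpatch3 (2.72) and 1700037C18Rik (2.78). This likeness is one of rank only.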

How the data were processed

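The authors deposited one narrowPeak list for each of 4 USF2 libraries, so replicates were not pooled. Per the submitters' processing notes, the build was GRCm38 and the tools were MACS2 2.2.7.1, Bowtie2 2.5.1 and deepTools 3.5.1. Parameters and the use of inputs as control are not given in the sources used here. The deposited values are a fold enrichment (a ratio of summit pileup to local background), −log10 p, −log10 q, a score and the summit's offset. For all peaks the score was close to the whole part of 10 times −log10 q, and exact equality was not checked. The highest q in the deposited lists was 0.0499.

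Coordinates are 1-based in GRCm38. Genes came from the RefSeq table of GRCm38.p6 (protein-coding, chromosomes 1 to 19, X and Y), and strands and sequences from its promoter table. Ranks are by −log10 q within the whole list, ties sharing the best rank, and 8 peaks of starved list 2 lay on unplaced sequences. Pileup was recovered as the whole number of reads whose Poisson tail matched −log10 p, within 0.001 for all peaks. This step was checked on simulated pileups of at least 5 reads, while the smallest in the lists was 3. The calling of genes was checked on summits planted before the lower coordinate of a gene. Summits inside a gene or past its other end were not covered. Sequencing depth is not given by the lists, and median summit pileups were 8 and 6 reads after starvation and 5 and 6 in normal culture.

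The members and gene lists were chosen with earlier results of these data known, and no test was run on them. All 9 members are described. In other lists, genes called in both lists of a condition are named, at most 8 per list, and for called members the 3 genes nearest in rank, leaving out genes that share the member's peak. Alternatives changed the distance, the placing of peaks, the q, pileup and list length limits, the overlap, the motif and the lists used. Python 3.11.15 with pandas 2.3.3 and scipy 1.17.1 was used.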

Additional observations from a re-analysis of the deposited data

How the results depend on the processing

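The calls of Atf4 were kept under every alternative run, and those of Atf1, Atf6b and Chac1 were not. With −log10 q of at least 5, the genes called in both starved lists and in all 4 lists came to 1, Atf4, in place of 3, while the 4 genes of both normal lists remained. With a reciprocal overlap of 50% between the peaks of all lists, 1 gene, Atf4, was left of 3, as peaks in the starved lists are wider than in the normal lists. With summit pileups of at least 10 reads, 2 genes (Atf4 and Atf6b) were called in both starved lists and in all 4 lists. Within 500 bp, 3 genes were called in both normal lists, without Chac1. Limits of 5000 bp, gene ends alone, any overlap of the peak, and the 825 best peaks of each list changed no count. Without any single replicate the counts remained 3 for both starved lists and for all 4 lists, and 4 for both normal lists and for any list. An E-box was found in 2 windows with GTCACGTG, and in 3 when CATGTG counted as well. No paired analysis was possible because the calls come from no test and replicate numbers are the only link between libraries. Pileups of 7 to 20 reads at Atf1, Atf6b and Chac1 limit what can be said of their levels, and 2 lists per condition allow no exact p below 0.33.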

Other observations

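Tef, although called in all 4 lists, had its summits at different places: 8431 and 8407 bp from a gene end in the starved lists, and 140 and 128 bp from one in the normal lists. For Batf3 the summits of the starved lists lay 287 and 288 bp from a gene end, with −log10 q of 7.01 and 10.5. The normal peaks of Atf1 shared their end, those of Chac1 their start and those of Atf6b both edges, and the starved peaks of Atf4 shared their end. An identical edge was found in 44.7% of 1052 regions called in both normal lists and in 21.7% of 543 called in both starved lists.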
